A study of Homo sapiens with 24 samples.

Results

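A set of 17 genes was close to silent in PEO1 cells and clearly transcribed in PEO4 cells in 2 separate untreated pairs of these ovarian cancer lines. The genes were LTK, ESPN, PTH1R, CD22, FBLN2, GGT6, FOLR1, TGM3, KLHL30, NPY4R, TNNC1, ERBB4, KCNJ4, GALNT9, LINC00861, C6orf223 and LRRTM1. They were chosen from the 28277 genes of the count tables by their mean CPM (counts per 1000000 counts of the library). The mean had to be at least 5 CPM in untreated PEO4 of each pair and at most 0.5 CPM in untreated PEO1 of each pair. Genes whose symbols start with WNT, HOX, COL, SPRR, IFI or FOX were set aside, which removed COL6A2 and FOXE1. The mirrored limits, high in PEO1 and low in PEO4, were met by 27 genes.

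PEO1 and PEO4 are high-grade serous ovarian carcinoma lines that share 1 donor, PEO1 from the chemosensitive and PEO4 from the resistant stage of the disease. Pair A held BRCA2-deficient wild-type PEO1 and BRCA2-proficient PEO4, both untreated and with 3 libraries each. Pair B held PEO1 BRCA+, PEO1 cells in which a spontaneous reversion restored BRCA2, and PEO4, each untreated, after 2 h and after 6 h in 5 µM pyridostatin (PDS), again with 3 libraries per condition. PDS is a small molecule that binds G-quadruplexes (G4s), four-stranded folds of guanine-rich DNA. The labels list no treatment for the untreated libraries and name no vehicle. The series calls the 3 libraries of a condition biological replicates. Nothing says that they came from separate cultures, so p-values measure only the spread between these samples of 1 line, which may be technical.

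The products of these genes sit in many compartments of a cell. Receptors at the surface bind growth factors, peptide hormones or folate, and the transmembrane tyrosine kinases among them pass the signal on by phosphorylation. Transglutaminases crosslink proteins, fibulins are built into the extracellular matrix, and espin bundles actin filaments in microvilli and sensory hair cells. Synaptic adhesion proteins, inwardly rectifying potassium channels and muscle troponins are best known from nerve, heart and muscle rather than from ovarian epithelium.

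All 17 genes had a RefSeq position on GRCh38.p14, on 13 chromosomes, and 15 were protein coding. C6orf223 is listed there as the non-coding LINC03040 and was matched through its older symbol. A promoter window, 250 bases before to 50 bases after the start site, was matched for 12 of the 17 genes (70.6%), too few for a statement on the whole set. ESPN, GGT6, FOLR1, TNNC1 and LINC00861 had no entry. A G4 motif, taken as 4 runs of GGG separated by 1 to 7 bases on either strand, was found in 5 of the 12 windows, against 33.7% of the 12446 windows of genes tested in pair B and 24.1% of all 27305 windows. The 5 genes were FBLN2, NPY4R, ERBB4, KCNJ4 and GALNT9, and GALNT9 held 4 matches, 2 on each strand. TATAAA on either strand was found in 1 window, that of TGM3, against 6.195% of the tested genes and 11.954% of all windows. A match is a description of the letters and not a measured G4.

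The 250 bases before the start are shown for 3 genes with a G4 motif and for 2 without, chosen among the windows that lie outside their gene's annotated span. Each runs 5′ to 3′ on the strand of its gene. Capitals mark the G4 motif, which reads as runs of C where it lies on the opposite strand, and in TGM3 they mark TATAAA on either strand. LRRTM1 has no capitals since neither motif was found. The ERBB4 window lies at chr2:212538803-212539052 on the minus strand, GALNT9 at chr12:132329590-132329839 on the minus strand, and FBLN2 at chr3:13548875-13549124 on the plus strand. TGM3 lies at chr20:2295751-2296000 on the plus strand and LRRTM1 at chr2:80304753-80305002 on the minus strand.
ERBB4: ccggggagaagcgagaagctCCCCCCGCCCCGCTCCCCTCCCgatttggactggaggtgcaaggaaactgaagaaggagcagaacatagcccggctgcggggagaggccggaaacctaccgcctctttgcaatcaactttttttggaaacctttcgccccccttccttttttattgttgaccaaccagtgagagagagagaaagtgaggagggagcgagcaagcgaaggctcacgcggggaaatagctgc
GALNT9: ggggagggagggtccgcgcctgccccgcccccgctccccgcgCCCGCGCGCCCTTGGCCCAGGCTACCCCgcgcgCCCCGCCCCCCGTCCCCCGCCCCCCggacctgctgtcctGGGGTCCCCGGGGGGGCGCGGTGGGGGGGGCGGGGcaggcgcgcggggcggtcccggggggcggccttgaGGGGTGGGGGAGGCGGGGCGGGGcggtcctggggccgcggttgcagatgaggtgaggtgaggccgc
FBLN2: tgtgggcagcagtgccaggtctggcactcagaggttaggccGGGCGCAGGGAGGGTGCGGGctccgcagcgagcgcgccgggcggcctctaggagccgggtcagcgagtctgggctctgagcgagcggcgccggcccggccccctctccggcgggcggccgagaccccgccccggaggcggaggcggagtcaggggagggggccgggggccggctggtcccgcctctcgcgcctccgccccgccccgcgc
TGM3: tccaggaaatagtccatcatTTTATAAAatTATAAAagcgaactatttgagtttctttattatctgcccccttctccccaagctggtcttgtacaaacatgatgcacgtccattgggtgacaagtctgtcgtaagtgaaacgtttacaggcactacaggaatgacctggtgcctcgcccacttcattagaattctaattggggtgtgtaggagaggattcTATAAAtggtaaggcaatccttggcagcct
LRRTM1: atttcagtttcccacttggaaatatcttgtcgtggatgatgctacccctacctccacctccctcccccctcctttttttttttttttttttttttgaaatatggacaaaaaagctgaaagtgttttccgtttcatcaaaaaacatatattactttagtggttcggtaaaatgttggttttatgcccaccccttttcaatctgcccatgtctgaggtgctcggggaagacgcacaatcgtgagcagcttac
In ERBB4 the motif began 230 bases before the start site. In TGM3 the TATAAA nearest the start began 30 bases before it. The GC content of the whole window ran from 44.67% in LRRTM1 to 84.0% in GALNT9.

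Library totals were 32528913 to 63882077 counts in pair A, 18699929 to 22375644 in untreated pair B and 33260167 to 43713947 in PDS-treated pair B, so 3 counts, the floor used here for a library, stood for 0.047 to 0.160 CPM. Intervals and floors cover counting error only. Genes for ribosomal RNA took 0.217% to 0.474% of counts in untreated and 0.0164% to 0.0369% in PDS-treated libraries of pair B. The effect of PDS and any effect of this difference between the untreated and treated libraries cannot be told apart, whereas 2 h and 6 h libraries lay in the same ranges. Of 12 markers of ovarian carcinoma epithelium, 10 were at 1 CPM or more in every PEO1 and PEO1 BRCA+ group and 11 in every PEO4 group. The marker that differed was FOLR1, 1 of the 17 genes, whose untreated levels the choice had limited. SOX17 was at 0.198 CPM or less in all 4 untreated groups. Of 7 leukocyte markers 2 were at 1 CPM or more in every condition, CD68 at 24.8 to 70.9 CPM and CD14 at 1.07 to 5.78 CPM, while CD3E and MS4A1 were at 0 throughout. Of 9 fibroblast markers 2 to 4 were at 1 CPM or more, in every condition THY1 at 9.25 to 376 CPM and COL1A1 at 2.69 to 30.4 CPM. THY1 was lowest in untreated PEO4 of pair B and highest in PEO1 of pair A. Of 4 endothelial markers 1, PECAM1 at 1.34 CPM in untreated PEO4 of pair B, reached 1 CPM in any condition.

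In untreated cells the 17 genes together took 507 to 594 CPM in PEO4 of pair A and 640 to 1266 CPM in PEO4 of pair B, against 2.80 to 3.58 CPM in PEO1 and 2.14 to 3.26 CPM in PEO1 BRCA+. A single gene had at most 28 counts in any library of PEO1 and at most 14 in any untreated library of PEO1 BRCA+. These levels chose the genes and are given as a description without a test. Over all genes, 12.6% in pair A and 12.2% in pair B were called higher in PEO4, that is, with a Benjamini-Hochberg adjusted p under 0.05 in edgeR's quasi-likelihood test and a log2 fold change (Log2FC) over 1. In bulk RNA, fewer cells with a transcript and less transcript per cell cannot be told apart. Members nearest the limits were LINC00861 at 5.40 CPM, CD22 at 6.16 CPM and NPY4R at 6.22 CPM in PEO4 of pair A, and CD22 at 5.75 CPM, KLHL30 at 6.27 CPM and LINC00861 at 7.29 CPM in pair B. Near the limits on the outside were AOC1 at 4.43 CPM and TIE1 at 4.38 CPM in pair A, and PCDHB17P at 4.96 CPM, EMILIN2 at 4.62 CPM and PSAPL1 at 4.47 CPM in pair B. On the PEO1 side the members nearest the limit were TNNC1 at 0.417 CPM, FOLR1 at 0.403 CPM and PTH1R at 0.364 CPM in pair A, and CD22 at 0.397 CPM, TNNC1 at 0.319 CPM and C6orf223 at 0.283 CPM in pair B. ATP2A3 at 0.572 CPM, MMP14 at 0.757 CPM and MIR34AHG at 0.845 CPM in pair A, and ZFPM2 at 0.556 CPM, NETO1 at 0.699 CPM and PPP1R3G at 0.813 CPM in pair B, lay just above it. In 9 of the 17 genes every single library kept to the limits. CD22 and PTH1R missed the limit of pair A without PEO4 library 1, LINC00861 missed it without PEO4 library 3, and CD22 missed that of pair B without untreated PEO4 library 3.

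**Figure D1:**
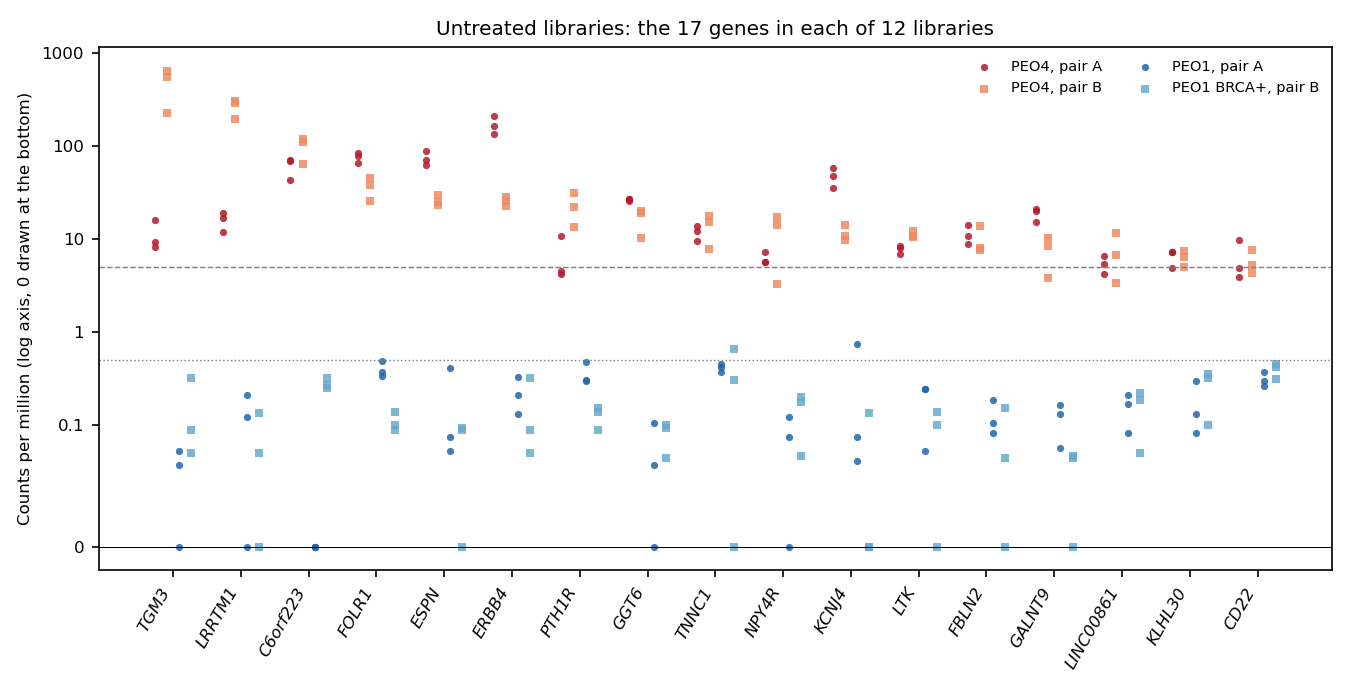
CPM of each of the 17 genes (x axis) in each of the 12 untreated libraries (points; log axis, with 0 drawn at the bottom). The dashed line marks 5 CPM and the dotted line 0.5 CPM; the PEO4 libraries lie near or above the upper line and the PEO1 libraries near or below the lower one, as the choice of genes requires.

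The receptors were led by ERBB4, a receptor tyrosine kinase of the EGF receptor family that binds neuregulins. ERBB4 (chr2:211375717-212538802, minus strand) measured 209, 133 and 164 CPM in the 3 PEO4 libraries of pair A, and 28.0, 22.9 and 25.6 CPM in those of pair B. All 3 values of pair A lay above all 3 of pair B. PEO1 held 16, 8 and 7 ERBB4 counts per library in pair A and 1, 2 and 7 in pair B. FOLR1 (chr11:72189709-72196323, plus strand) encodes folate receptor alpha, a membrane-anchored protein that is abundant in many serous ovarian carcinomas. It measured 84.4, 65.0 and 77.7 CPM in PEO4 of pair A and 37.6, 25.3 and 45.3 CPM in pair B, so it too was higher in every library of pair A. PTH1R, the G protein-coupled receptor for parathyroid hormone and its related peptide, measured 10.8, 4.23 and 4.49 CPM in pair A and 22.1, 13.4 and 31.0 CPM in pair B, the opposite order without overlap.

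The other receptors were lower. LTK, a receptor tyrosine kinase related to ALK, averaged 7.83 CPM in pair A and 11.2 CPM in pair B. NPY4R, the receptor for pancreatic polypeptide, averaged 6.22 and 11.6 CPM, with a low value of 3.26 CPM in the second untreated library of pair B. NPY4R has a near-identical copy, NPY4R2, which averaged 0.779 and 3.81 CPM in the same groups, so the division of reads between the copies is uncertain. CD22 (chr19:35329187-35347361, plus strand) encodes an inhibitory co-receptor of B cells that binds sialic acid. It averaged 6.16 CPM in pair A and 5.75 CPM in pair B, while PTPRC, CD3E and MS4A1, which define leukocytes and B cells, were at 0 in every untreated PEO4 library of pair B and the monocyte and macrophage markers CD68 and CD14 averaged 45.3 and 2.13 CPM.

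Among the enzymes, TGM3 (chr20:2296001-2341079, plus strand), the epidermal transglutaminase that crosslinks proteins of the cornified envelope, showed the widest difference between the pairs. It measured 16.1, 8.22 and 9.35 CPM in PEO4 of pair A and 640, 227 and 549 CPM in PEO4 of pair B, a ratio of 42.1 between the means. Every library of pair B was thus far above every library of pair A. Of the other enzymes, GGT6 belongs to the gamma-glutamyltransferase family and GALNT9 to the enzymes that start mucin-type O-glycosylation. GGT6 averaged 26.6 and 16.4 CPM in pairs A and B, and GALNT9 18.8 and 7.47 CPM.

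LRRTM1 (chr2:80288356-80304752, minus strand), a leucine-rich repeat adhesion protein of synapses, followed TGM3. It measured 11.8, 16.7 and 18.8 CPM in pair A and 290, 196 and 300 CPM in pair B, a ratio of 16.6 between the means. LRRTM1 lies inside CTNNA2, which averaged 1.78 and 4.31 CPM in the same groups. KCNJ4, an inwardly rectifying potassium channel, went the other way with 35.2, 46.9 and 58.1 CPM in pair A and 10.7, 9.73 and 14.1 CPM in pair B. ESPN, the actin-bundling protein espin, averaged 73.6 and 26.0 CPM, and TNNC1, the calcium-binding troponin of heart and slow muscle, 11.8 and 13.5 CPM. FBLN2, a fibulin secreted into the matrix, averaged 11.2 and 9.92 CPM. KLHL30, of the Kelch-like family, averaged 6.48 and 6.27 CPM. Of the non-coding transcripts, C6orf223 averaged 61.0 CPM in pair A and 97.3 CPM in pair B, and LINC00861 5.40 and 7.29 CPM.

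In all, 8 genes were higher and 9 lower in PEO4 of pair B than in PEO4 of pair A. The pairs were counted in separate tables, and pair A cells had sodium pyruvate added to their medium, so these differences are a description only. Per kilobase of exon, which allows levels to be compared between genes, FOLR1 was highest in pair A at 47.3 CPM per kb, followed by KCNJ4 at 22.6, ERBB4 at 12.97 and C6orf223 at 11.0 CPM per kb. In pair B the order began with TGM3 at 175 CPM per kb, then LRRTM1 at 51.9, FOLR1 at 22.5 and C6orf223 at 17.5 CPM per kb. The second untreated PEO4 library of pair B was the lowest of its group for 15 of the 17 genes and the third the highest for 13.

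**Figure D2:**
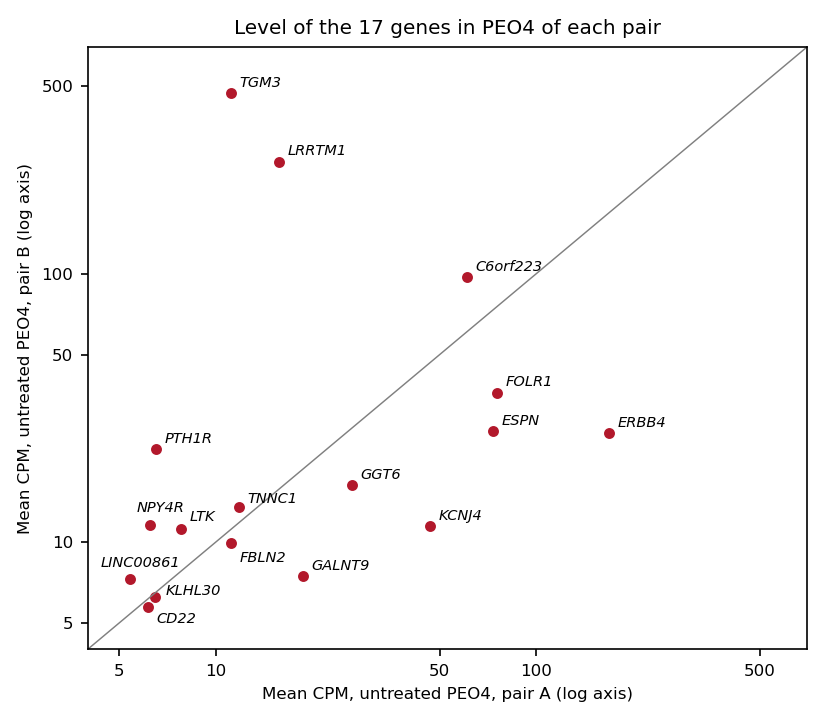
Mean CPM of each of the 17 genes in untreated PEO4 of pair A (x, log axis) and pair B (y, log axis; 3 libraries each), with the line of equal level. TGM3 and LRRTM1 lie far above the line, at 472 and 262 CPM in pair B against 11.2 and 15.8 CPM in pair A, and ERBB4 and KCNJ4 lie well below it.

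The limits applied to each pair alone were met by 60 genes in pair A and 58 in pair B, so the 17 shared genes were 28.3% of the one list and 29.3% of the other. Of the 43 genes that met the limits in pair A only, 36 were under 5 CPM in untreated PEO4 of pair B, 14 were over 0.5 CPM in untreated PEO1 BRCA+, and 7 were both. Of the 41 found in pair B only, 32 were under 5 CPM in PEO4 of pair A, 18 were over 0.5 CPM in PEO1 of pair A, and 9 were both. Missing the PEO4 limit was thus the more frequent reason in both lists.

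The next question was how these genes answered PDS in PEO4. After 2 h, 11 of the 17 were called lower, 1 was called higher and 5 were not called. Of all 17020 genes tested, 11.0% were called lower and 6.4% higher. The median Log2FC of the 17 was -3.06, against 0.00 for all genes. After 6 h, 15 were called lower, 0 higher and 2 were not called, against 16.3% and 6.26% of all genes, with a median Log2FC of -4.91 against -0.03. At an unadjusted p under 0.05 in edgeR, 17 were lower and 0 higher at 6 h, and DESeq2's Wald test also called 15 lower and 0 higher. The median gene kept 11.0% of its untreated CPM at 2 h and 2.99% at 6 h. The choice of genes used the untreated PEO4 libraries and set a floor of 5 CPM in them, which favours a fall against them, and both contrasts share those libraries, so these counts, and the folds against untreated PEO4 given below with their SE and without a p, are a description of the genes.

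TGM3 and LRRTM1, with the highest levels per kilobase in untreated PEO4 of pair B, were among the genes with the furthest falls. TGM3, at 640, 227 and 549 CPM untreated, measured 1.99, 1.85 and 1.62 CPM after 2 h and 1.42, 1.06 and 0.857 CPM after 6 h. No treated library came near an untreated one. The Log2FC was -7.89 (SE 0.40) at 2 h and -8.54 (SE 0.43) at 6 h. All 8 markers of squamous epithelium were in the table. In PEO4 of pair B they summed to 212 to 457 CPM untreated, 61.0 to 69.7 CPM at 2 h and 77.4 to 78.9 CPM at 6 h. KRT1 averaged 0.067 CPM untreated and was at 0 in every PEO4 library at 2 h. Most of the untreated sum was KRT5, at 186, 10.5 and 20.5 CPM over the course, and FLG, at 104, 3.02 and 2.95 CPM, while KRT10 was at 35.9, 42.4 and 42.4 CPM. Between the lines the sum did not go with TGM3. It was 1413 to 1715 CPM in untreated PEO1 BRCA+ and 864 to 1071 CPM in PEO1, where TGM3 was near 0. In PEO4 of pair A it was 70.3 to 74.4 CPM. The part of these markers in the result was not tested.

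LRRTM1, at 290, 196 and 300 CPM untreated, measured 2.01, 1.99 and 1.55 CPM at 2 h and 1.69, 1.76 and 1.71 CPM at 6 h. It reached its low level by 2 h, and the 2 h and 6 h libraries overlapped. The Log2FC was -7.02 (SE 0.17) at 2 h and -7.09 (SE 0.17) at 6 h. The summed level of 7 neuronal markers went from 102 to 294 CPM untreated to 61.0 to 71.9 CPM at 2 h and 29.9 to 33.8 CPM at 6 h, with ELAVL4 at 0 in every PEO4 library and STMN2 at 0 in those untreated or at 2 h. The sum was almost all MAP2, at 221, 29.4 and 13.5 CPM over the course, and SYT1, which went the other way at 7.44, 37.9 and 17.7 CPM. The part of these markers was not tested either. No G4 motif was found in the LRRTM1 and TGM3 windows printed above.

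The receptors were called lower at both times as well, apart from CD22 and LTK. ERBB4 went from 28.0, 22.9 and 25.6 CPM to 1.41, 1.71 and 1.23 CPM at 2 h and to 0.663, 0.879 and 0.742 CPM at 6 h. The 3 groups of libraries did not overlap. Its Log2FC was -4.01 (SE 0.17) at 2 h and -4.91 (SE 0.18) at 6 h. FOLR1 went from 37.6, 25.3 and 45.3 CPM to 3.75, 5.28 and 2.85 CPM and then to 0.961, 1.23 and 1.14 CPM. This was a stepwise fall without overlap, with a Log2FC of -3.07 (SE 0.19) at 2 h and -4.87 (SE 0.22) at 6 h. PTH1R went from 22.1, 13.4 and 31.0 CPM to 0.653, 0.449 and 0.417 CPM and then to 0.160, 0.0879 and 0.171 CPM, the last on 7, 3 and 6 counts. Its Log2FC was -5.32 (SE 0.29) at 2 h and -7.09 (SE 0.35) at 6 h. NPY4R went from 309, 61 and 347 counts to 3 counts in each library at 2 h and to 3, 8 and 1 counts at 6 h, that is, to about the floor. Its Log2FC was -7.02 (SE 0.70) at 2 h, and NPY4R2 went from 96, 32 and 106 counts to 3, 0 and 1.

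CD22 took the opposite course at 2 h. It measured 5.30, 4.28 and 7.69 CPM untreated, 16.8, 18.5 and 14.1 CPM at 2 h, and 4.21, 3.72 and 3.57 CPM at 6 h. Each 2 h library was above each untreated one, and each 6 h library was below each untreated one by a small margin. The Log2FC was 1.64 (SE 0.15) at 2 h and -0.42 (SE 0.16) at 6 h, the latter short of the fold threshold. The leukocyte list, 7 markers, summed to 36.8 to 60.8 CPM untreated and 72.9 to 82.3 CPM at 2 h, while PTPRC, CD3E and MS4A1 were at 0 in every PEO4 library at both. CD68 made up most of that sum, at 45.3 CPM untreated and 70.9 CPM at 2 h, and CD14 was at 2.13 and 5.78 CPM. The part of these markers in the result was not tested. LTK, the other receptor not called at 6 h, had 10.5, 10.8 and 12.2 CPM untreated, 6.80, 8.05 and 6.40 CPM at 2 h and 5.15, 5.22 and 6.37 CPM at 6 h. The treated libraries were lower without overlap, yet the Log2FC of -0.53 (SE 0.16) and -0.84 (SE 0.16) stayed short of the fold threshold. With library totals in place of TMM scaling, which lowered the median of all genes by 0.16 at 6 h on the log2 scale, LTK reached -1.004 at 6 h and was called.

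**Figure D3:**
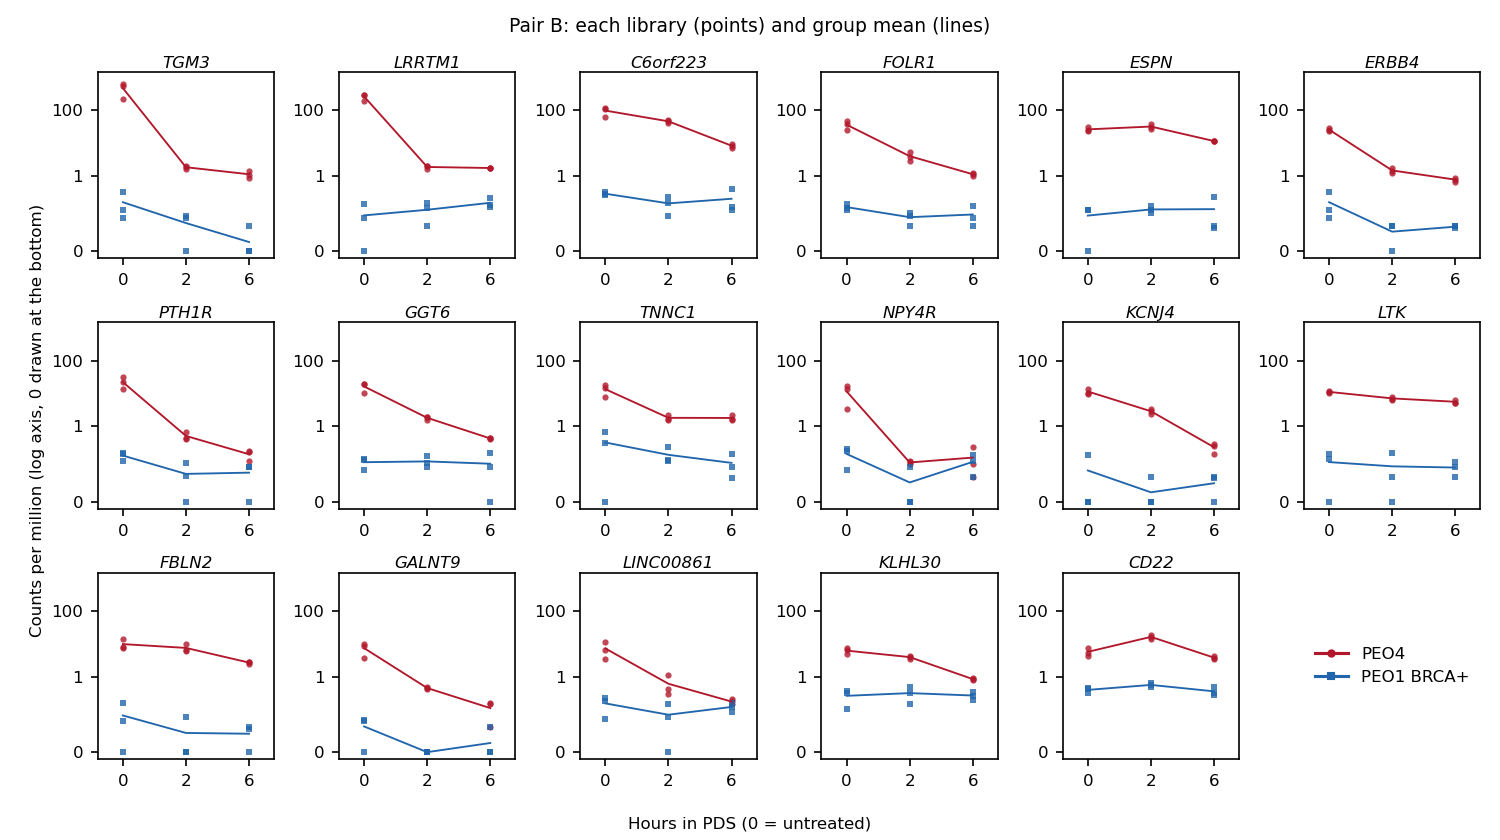
CPM of each of the 17 genes in PEO4 (red) and PEO1 BRCA+ (blue) of pair B, untreated and after 2 h and 6 h in PDS (points are libraries, lines join group means; log axis, with 0 drawn at the bottom). Most PEO4 lines drop towards the PEO1 BRCA+ level, whereas CD22 is highest at 2 h and LTK keeps 5.58 of 11.2 CPM at 6 h.

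Of the other enzymes and the channel, GGT6 went from 18.9, 10.3 and 19.8 CPM to 1.90, 1.96 and 1.55 CPM at 2 h and 0.435, 0.410 and 0.428 CPM at 6 h. Its Log2FC was -3.06 (SE 0.22) and -5.10 (SE 0.26). GALNT9, whose window held 4 G4 motifs, averaged 7.47, 0.452 and 0.111 CPM over the course and was called lower at both times, with a Log2FC of -3.91 (SE 0.33) at 2 h and -5.82 (SE 0.41) at 6 h. KCNJ4 went from 10.7, 9.73 and 14.1 CPM to 2.29, 3.34 and 2.99 CPM and then to 0.252, 0.293 and 0.143 CPM. Its later step was the larger, with a Log2FC of -1.87 (SE 0.20) at 2 h and -5.46 (SE 0.28) at 6 h.

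Of the structural genes, ESPN measured 23.4, 24.97 and 29.7 CPM untreated, 30.1, 37.7 and 27.5 CPM at 2 h and 11.4, 11.3 and 11.6 CPM at 6 h. The untreated and 2 h libraries overlapped and the 6 h libraries were below both. Its Log2FC was 0.41 (SE 0.12) at 2 h and -1.02 (SE 0.13) at 6 h, the latter close to the fold threshold. It fell short of that threshold at -0.93 without the third untreated PEO4 library and at -0.99 without the low-count filter. FBLN2, whose window held a G4 motif, averaged 9.92, 7.58 and 2.71 CPM over the course, with a Log2FC of -0.26 (SE 0.21) at 2 h and -1.71 (SE 0.23) at 6 h. KLHL30 averaged 6.27, 3.98 and 0.848 CPM and was called at 6 h only (Log2FC -2.72, SE 0.23), with -0.53 (SE 0.19) at 2 h. TNNC1 stood at 13.5, 1.81 and 1.79 CPM, with a Log2FC of -2.77 (SE 0.33) and -2.75 (SE 0.33). Of the non-coding transcripts, C6orf223 went from 118, 63.6 and 110 CPM to 49.2, 46.6 and 41.6 CPM and then to 7.05, 8.32 and 9.45 CPM, without overlap. The C6orf223 Log2FC of -0.96 (SE 0.19) at 2 h was just short of the threshold, and it reached -1.19 without the second untreated PEO4 library and -1.09 with library totals. At 6 h it was -3.40 (SE 0.21). LINC00861 averaged 7.29, 0.611 and 0.175 CPM and was called lower at both times.

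**Figure D4:**
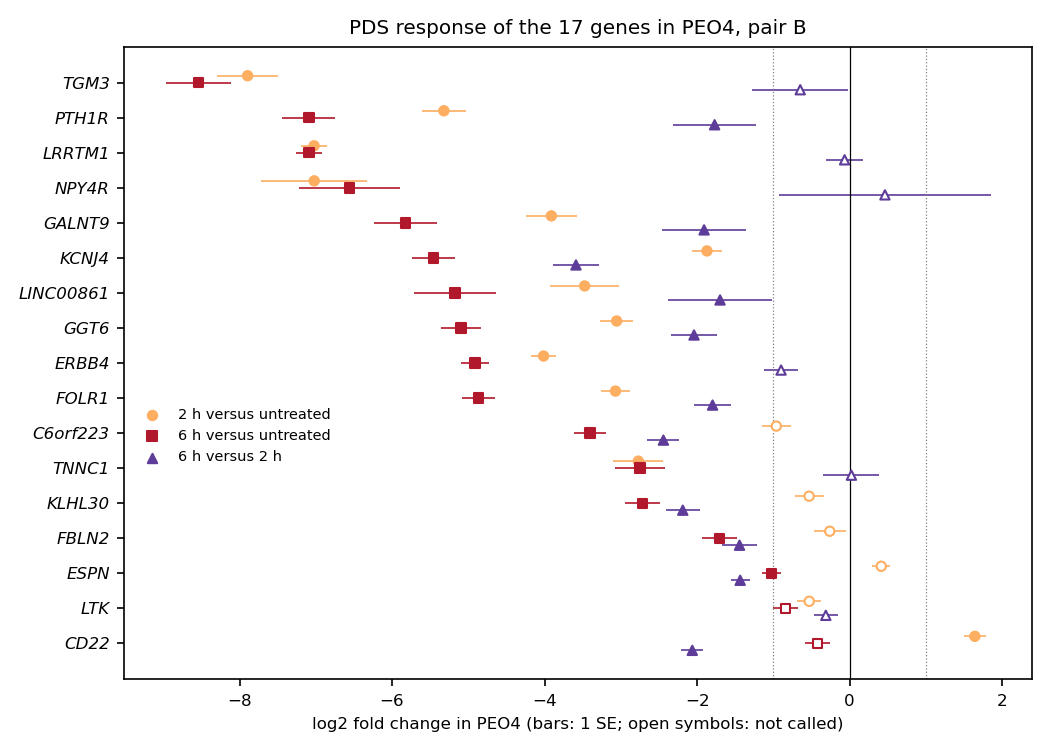
Log2FC of the 17 genes in PEO4 of pair B for 2 h against untreated (orange), 6 h against untreated (red) and 6 h against 2 h (purple), with bars of 1 SE, filled where the gene was called. TGM3, PTH1R, LRRTM1 and NPY4R lie furthest to the left, and CD22 at 2 h is the only filled symbol above 0.

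The change between 2 h and 6 h in PEO4 compares libraries that took no part in the choice of genes and that had similar depths. The low-count filter and the estimate of spread behind the p-values still came from all 18 libraries of pair B, the untreated ones included. From 2 h to 6 h, 11 of the 17 genes were called lower, 0 higher and 6 were not called, against 9.71% lower and 2.27% higher of all genes, and the median Log2FC was -1.70 against -0.02. At an unadjusted p under 0.05 in edgeR, 12 were lower and 0 higher, and DESeq2's Wald test again called 11 lower and 0 higher. KCNJ4 fell the most between these times (Log2FC -3.59, SE 0.30, adjusted p = 5.83e-10), followed by C6orf223 (-2.44, SE 0.21), KLHL30 (-2.19, SE 0.22), CD22 (-2.06, SE 0.15) and GGT6 (-2.04, SE 0.31). GALNT9 (-1.91), FOLR1 (-1.80), PTH1R (-1.77), LINC00861 (-1.70), FBLN2 (-1.44) and ESPN (-1.44) completed the called genes. ERBB4 was lower in every 6 h library, but its Log2FC of -0.90 (SE 0.22, adjusted p = 0.00108) was under the fold threshold. The call of LINC00861 (adjusted p = 0.0399), which stood on 15, 40 and 13 counts at 2 h and 9, 6 and 5 at 6 h, was lost without the second 2 h library (Log2FC -0.95, adjusted p = 0.277) and without each single 6 h library (adjusted p = 0.0851, 0.0926 and 0.109). TGM3 (-0.65, adjusted p = 0.399), LRRTM1 (-0.07, adjusted p = 0.831), TNNC1 (0.02, adjusted p = 0.967), NPY4R (0.46, adjusted p = 0.796) and LTK (-0.31, adjusted p = 0.0957) were not called. TGM3 and LTK were nevertheless lower in every 6 h library, and the Log2FC of TGM3 ran from -0.88 to -0.49 over the alternatives. NPY4R, with 9 counts over the 2 h and 12 over the 6 h libraries, passed the filter only through untreated PEO4, so a call was hardly open to it.

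A second comparison, again with no choosing library on either side, set PEO4 against PEO1 BRCA+ at each time in PDS. Its filter and spread were shared with the untreated libraries in the same way. At 2 h, 16 of the 17 genes were called higher in PEO4, against 13.9% of all genes, and the median Log2FC was 5.45. At 6 h 14 were called higher, against 9.52% of all genes, with a median Log2FC of 3.51. The genes were chosen for this direction in untreated cells of the same lines, so a higher level in PEO4 was favoured in advance. The counts, folds and p-values here describe what was left of that difference in PDS. The opposite direction, called for 0 of the 17 at either time in edgeR (0 also at an unadjusted p under 0.05) and in DESeq2, was hardly open to genes chosen for being near 0 in PEO1 BRCA+. CD22 was at 16.8, 18.5 and 14.1 CPM in PEO4 and at 19, 25 and 17 counts, or 0.563 CPM on average, in PEO1 BRCA+ at 2 h (Log2FC 4.83, SE 0.19, adjusted p = 4.26e-17). ESPN differed at 2 h by a Log2FC of 8.34 (SE 0.24, adjusted p = 8.97e-19), and still 6.90 (SE 0.27, adjusted p = 1.9e-16) at 6 h. LTK differed by 6.67 (SE 0.32) and 6.56 (SE 0.34). GALNT9 had 0 counts in all 3 PEO1 BRCA+ libraries at 2 h, so its level in PEO4 was at least 5.38-fold higher, taking 3 counts per library as the floor.

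The genes not called at 6 h were PTH1R (Log2FC 1.84, SE 0.97, adjusted p = 0.0979), NPY4R (0.35, SE 1.39, adjusted p = 0.837) and LINC00861 (0.55, SE 0.94, adjusted p = 0.621). They stood at 3 to 7, 1 to 8 and 5 to 9 counts per PEO4 library. PTH1R was higher in each PEO4 library than in each PEO1 BRCA+ library, and it was called with DESeq2's Wald test (1.93, adjusted p = 0.041) and with the replicate number as a block (1.83, adjusted p = 0.039). NPY4R was also not called at 2 h, with 9 counts over the PEO4 libraries and 2 over those of PEO1 BRCA+, a ratio of 4.20 with a 95% counting interval of 0.868 to 39.9. It passed the low-count filter only through untreated PEO4. GALNT9 at 6 h (Log2FC 3.18, adjusted p = 0.0217) rested on 13 counts against 1 and lost its call without PEO4 library 1 or 3 (adjusted p = 0.0904 and 0.0569) and without PEO1 BRCA+ library 1 or 2 (adjusted p = 0.0794 and 0.0713). By their means, 2 genes at 2 h and 6 at 6 h were at or under 0.5 CPM in PEO4, the limit that was set for PEO1, and 5 and 3 remained at 5 CPM or more.

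In PEO1 BRCA+ the genes stayed near the floor. With PDS, 0 of the 17 were called higher at 2 h or 6 h, against 1.18% and 1.29% of all genes, and 1 was called lower at each time, against 6.39% and 6.83%. At an unadjusted p under 0.05, 0 were higher and 1 lower at each time in edgeR's quasi-likelihood test, and DESeq2's Wald test also called 0 higher but 3 lower at 6 h, namely ERBB4, TGM3 and TNNC1. The ceiling of 0.5 CPM in the untreated libraries left little room for a fall. At a median of 2 counts per library in PEO1 BRCA+, most of the genes passed the low-count filter only through PEO4 libraries. Their shares called are thus not like for like with those of all genes. The gene called lower, ERBB4, held 1, 2 and 7 counts untreated, 1, 0 and 1 at 2 h and 1, 1 and 1 at 6 h. Its Log2FC of -2.70 (SE 0.85, adjusted p = 0.00943) at 2 h and -2.20 (SE 0.79, adjusted p = 0.0209) at 6 h rested on the third untreated library, without which the adjusted p was 0.264 and 0.426. Without the first 6 h library the adjusted p at 6 h was 0.0532. By mean level, 16 of the 17 genes were at or under 0.5 CPM at 2 h and 17 at 6 h, the exception being CD22 at 0.563 CPM. The difference between the PDS responses of the lines, the interaction term of the same fit, was called for 2 genes at 2 h and 8 at 6 h, each with the lower Log2FC in PEO4, against 4.92% and 9.34% of all genes. The opposite direction was called for 0 of the 17, against 6.1% and 5.42% of all genes. This test shares the untreated libraries that chose the genes, and PEO1 BRCA+ had little room to fall, so its direction was largely set by the choice.

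Because untreated PEO4 of pair B took part in the choice, the PDS contrasts were also counted for the 60 genes that met the limits in pair A alone, whose choice used no library of pair B. Of these 60, 53 could be tested. Shares are given of all 60, whereas those of all genes are of tested genes. At 2 h, 33 (55.0%) were called lower and 5 (8.33%) higher, and at 6 h 39 (65.0%) were called lower and 3 (5.00%) higher, beside 11.0% and 16.3% of all genes called lower and 6.4% and 6.26% called higher. Among the 43 of them outside the set of 17, 36 could be tested. Of the 43, 22 (51.2%) were called lower at 2 h and 24 (55.8%) at 6 h, with 4 and 3 called higher. From 2 h to 6 h, 24 of the 60 were called lower and 1 higher, against 9.71% and 2.27% of all genes.

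The families to which the genes belong were described by lists of symbols. Shares called at 6 h are to be read against the 16.3% lower and 6.26% higher of all genes. Of 50 tested genes of the cornified envelope and squamous epithelium, which include TGM3, 31 (62.0%) were called lower and 3 higher in PEO4 at 6 h, with a median Log2FC of -1.63 against -0.03 for all genes. Of 167 ion channel genes, the list of KCNJ4, 55 (32.9%) were lower and 7 higher, and of 149 genes for G protein-coupled receptors, the list of PTH1R and NPY4R, 48 (32.2%) were lower and 14 higher. Of 149 immune surface and sensing genes, the list of CD22, 23 were lower and 23 higher at 2 h, and 45 (30.2%) were lower and 13 higher at 6 h. For cell adhesion and matrix, with FBLN2, 53 of 173 (30.6%) were lower and 21 higher at 6 h, and for neuronal adhesion and synapse, with LRRTM1, 32 of 137 (23.4%) were lower and 11 higher. For kinases, phosphatases and G protein regulators, with ERBB4, 67 of 397 (16.9%) were lower and 26 (6.55%) higher, close to the shares of all genes. For cytoskeleton and motors, with TNNC1, 30 of 167 (17.96%) were lower, also close to that share, and 20 (11.98%) higher. For non-coding RNA genes, with LINC00861, 482 of 2084 (23.1%) were lower and 120 higher. Lists without any of the 17 ran from 5.58% lower for zinc finger genes to 45.2% for axon guidance, with 38.1% for proteases and protease inhibitors. High shares were thus not particular to the families of the 17.

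None of the genes was the next coding neighbour of another. Chromosomes 2 and 3 carried 3 each and 11 further chromosomes 1 each. The 34 nearest coding genes on either side were then examined, and the ones named here were picked after their values were seen. In pair A 10 of the 26 tested neighbours were called higher in PEO4 and 2 lower, and in pair B 9 of 27 were called higher and 1 lower, where 12.6% and 12.2% of all genes were called higher. The 5 called higher in both pairs were HES2 beside ESPN, MAG beside CD22, IKZF2 beside ERBB4, TRIB1 beside LINC00861 and VEGFA beside C6orf223, and 0 were called lower in both. In PEO4 at 6 h of PDS, 12 of the 27 tested were called lower and 0 higher, against 16.3% and 6.26% of all genes.

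Several neighbours had a course like that of the adjoining gene. MAG, which encodes myelin-associated glycoprotein, a relative of CD22 that also binds sialic acid, lies 15379 bases from CD22 and averaged 2.75 CPM untreated, 11.6 CPM at 2 h and 2.78 CPM at 6 h in PEO4. In PEO1 BRCA+ MAG stayed at 0.197 CPM or less. TGM6, another transglutaminase gene, lies 39821 bases from TGM3 and averaged 1.85, 0.051 and 0.010 CPM over the course in PEO4 of pair B, with 0 in all PEO1 BRCA+ groups. IKZF2 averaged 15.5, 4.01 and 1.46 CPM and VEGFA 247, 78.7 and 67.1 CPM. Both were also expressed in PEO1 BRCA+, where the adjoining genes were near 0, and were lower after PDS there too. IKZF2 averaged 6.02, 3.63 and 3.85 CPM over the course in PEO1 BRCA+, and VEGFA 52.2, 27.8 and 39.2 CPM. By contrast RPAP1 beside LTK, at 57.9, 45.4 and 59.4 CPM, and SUCLG1 beside LRRTM1, at 36.2, 45.6 and 48.7 CPM, were not called at 6 h in PEO4.

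Some members overlap other genes in the annotation, where the strand setting of the counting decides which gene receives a read. ESPN overlaps TNFRSF25, which averaged 15.1, 10.5 and 13.6 CPM over the course in PEO4 and, unlike ESPN, 11.5 CPM in untreated PEO1 BRCA+. PTH1R overlaps MYL3, which had 21, 2 and 24 counts in untreated PEO4 of pair B and 0 in every library of PEO1 and PEO1 BRCA+. CD22 holds the microRNA gene MIR5196, which had 10, 5 and 15 counts untreated, 40, 45 and 23 at 2 h and 17, 4 and 11 at 6 h in PEO4. CTNNA2, around LRRTM1, went from 98, 55 and 110 counts to 16, 17 and 11 and then to 3, 4 and 9 in PEO4.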

How the data were processed

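RNA of PEO1, PEO1 BRCA+ and PEO4 cells was sequenced in 24 libraries, 6 in pair A and 18 in pair B, with 3 replicates per condition. The authors deposited raw read counts per gene symbol, without normalization. FastQC, fastp, STAR, featureCounts and the build hg38 come from the submitters' processing notes, and versions, annotation and strand setting are not given in the sources used here. A directional kit is stated for pair A only. Each table held 28277 genes once lines with no usable count were dropped (2 for pair A, 1 for pair B).

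CPM (counts per 1000000 counts of the library) were computed from library totals, which ranged from 18699929 to 63882077 counts. Counts were fitted in R 4.3.3 with edgeR 4.0.16 (TMM, filterByExpr, robust quasi-likelihood, a mean per condition), over all 18 libraries of pair B (17020 genes, 12 residual degrees of freedom) and over the 6 of pair A (15882 genes, 4 residual degrees of freedom). Calls needed an absolute Log2FC over 1 and a p under 0.05 after Benjamini-Hochberg adjustment over all tested genes, and SE was taken as the absolute Log2FC divided by the square root of F. Fold changes rest on TMM scaling and CPM on totals, so they differ slightly. Per-kilobase levels used exon unions of GENCODE release 44, and positions and promoters came from RefSeq GRCh38.p14. The scripts were tested on simulated data.

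All 17 members are named. By rule, the text also names the 3 genes nearest outside each limit, of which 1 is not reported here, and it adds the 2 genes left out by symbol and some neighbouring genes. The members and gene lists were chosen with earlier results of these data known. Alternatives were library totals, DESeq2 size factors, the Wald test of DESeq2 1.42.0, no low-count filter, only the groups compared, adjusted p alone, a replicate block, other limits on CPM, and each library left out.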

Additional observations from a re-analysis of the deposited data

Results flagged for a closer look

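The difference between the PDS responses of PEO4 and PEO1 BRCA+, as a Log2FC, was called for 2 of the 17 genes at 2 h and 8 at 6 h, by the interaction term of the edgeR fit with the thresholds used elsewhere. Of all genes 4.92% and 9.34% passed in this direction. The term uses the untreated libraries that chose the genes, and PEO1 BRCA+ had little room to fall, so the direction was largely set by the choice and the values are given as a description, without a p. At 2 h the response of PEO4 minus that of PEO1 BRCA+ was -3.28 for GGT6 (SE 0.99) and -7.69 for LRRTM1 (SE 1.36). At 6 h it was -5.57 for PTH1R, -5.15 for GGT6, -4.28 for FOLR1 and -2.87 for KLHL30. It was -5.96 for NPY4R, -4.95 for LINC00861, -3.08 for C6orf223 and -8.42 for LRRTM1. For each the change in PEO4 was a fall, and PEO1 BRCA+ held between 0 and 16 counts per library, so the PEO1 BRCA+ side is known only roughly. C6orf223 lost the call with only the groups compared and without a low-count filter, and NPY4R with only the groups compared. CD22, called higher in PEO4 at 2 h, had a difference of 0.98 (SE 0.42) that was not called, so its rise was not shown to differ from the Log2FC of 0.66 (SE 0.36) in PEO1 BRCA+.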

How the results depend on the processing

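Over the single genes, 1421 of 1449 recomputed values kept their side of the threshold, 18 lost the call and 10 gained it. Among values called in either fit, 0 reversed their direction. Values called in neither could change sign, as for NPY4R from 2 h to 6 h in PEO4, with a Log2FC of -0.55 to 0.87. The 17 genes became 5 at limits of 10 and 0.25 CPM, 96 at 2 and 1 CPM, and 9 where every library had to keep to the limits, and 16 to 19 with 1 library left out. With TMM-scaled CPM the same 17 genes were found. For PEO4 at 2 h, 11.765% were called higher by adjusted p alone and 0% of the 5 stricter members. At 6 h, 5.0% of the 60 genes of pair A alone and 2.083% of the 96 looser members were called higher. From 2 h to 6 h, 1.667% of pair A alone were called higher, and 40.0% of pair A alone, 40.0% of the stricter and 36.458% of the looser members lower. Called lower in PEO4 than in PEO1 BRCA+ were 6.667% and 6.25% at 2 h and 11.667% and 7.292% at 6 h, for pair A alone and looser members. In PEO1 BRCA+ at 2 h, 3.125% of the looser members were called higher, and 10%, 20% and 10.417% of pair A alone, stricter and looser members lower. At 6 h 2.083% of the looser members were higher, and 11.667%, 20% and 14.583% lower. With only the groups compared, ERBB4 had too few counts to pass the low-count filter and was not tested. The 0% called lower there at either time is therefore not a lost call. DESeq2 called 17.647% at 6 h (ERBB4, TGM3 and TNNC1). The cause of the other moves was not tested, apart from the change of members itself. With 1 library left out, the share of the 17 called lower ran from 64.706% to 70.588% (2 h), 82.353% to 88.235% (6 h) and 58.824% to 64.706% (6 h against 2 h) in PEO4, and the share higher than PEO1 BRCA+ was 94.118% at 2 h and 76.471% to 82.353% at 6 h. In PEO1 BRCA+ it was 0% to 5.882% at 2 h and 0% to 11.765% at 6 h. Without the second untreated PEO1 BRCA+ library TNNC1 was called lower at 6 h (-2.50, adjusted p = 0.0216). Deviations of libraries with the same replicate number correlated at -0.158 to 0.134, so the numbers were not taken to pair the samples. With the replicate block the PEO4 counts were the same or within 1.5 times, LINC00861 lost its call from 2 h to 6 h (adjusted p = 0.056) and PTH1R was called higher than in PEO1 BRCA+ at 6 h (1.83, adjusted p = 0.039), as it was with DESeq2 (adjusted p = 0.041). Library totals in place of TMM moved the median of all genes in PEO4 by -0.13 at 2 h and -0.16 at 6 h on the log2 scale. At 0 to 25 counts per library for each of the 17 genes, depth limits every comparison that involves PEO1 BRCA+.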
